A study of Drosophila melanogaster with 3 samples.

Results

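The cells described here are a class of the early pupal intestine of *Drosophila melanogaster* in which the metallothionein gene *MtnB* took a large share of all transcripts and a group of genes led by the chitinase *Cht4* was lower than in the remaining cells rich in *MtnB*. They were found in the pupal library of a single-cell RNA sequencing series, where 254 of the 2013 kept pupal cells met the rule, out of 5190 kept cells in all 3 libraries of the series. A kept cell had less than 25% of its unique molecular identifiers (UMIs, each standing for 1 captured transcript) from the mitochondrial genome, more than 200 and fewer than 4000 detected genes, and more than 1000 and fewer than 100000 UMIs. Of these, 434 cells had at least 500 *MtnB* UMIs per 10000 UMIs of the cell. The 434 were ranked by the summed level of 6 genes, *Cht4*, *CG32444*, *whe*, *CG9691*, *Sr-CI* and *Spn27A*, and the 180 with the highest sum, called chitinase-high cells from here on, were set apart. The other 254 are the members. The members were thus selected on the measured levels of *MtnB* and of these 6 genes, so these and every gene that varies with them are given as a description, and no difference between members and other cells was tested.

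The series compared intestines at the red-eye pupa (early pupa), on the first day of adult life (immature adult) and on days 7 to 8 of adult life (mature adult), dissected at the start of the light phase (ZT0). There was 1 library per stage, so no replicate error was measured and a stage cannot be told apart from its library. All 3 groups carry the labels female and CantonS in a *per01* background, *per01* being an arrhythmic loss-of-function allele of the period gene, while the study's methods name CantonS alone, a wild-type strain. The fore- and hindgut were taken off, and the tissue was dissociated with elastase and cleared on a density gradient, so cells that did not come through these steps are not seen. No treatment or transgene distinguishes the groups, and how many intestines were pooled in each library was not used here.

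Metallothioneins are small cysteine-rich proteins that bind copper, zinc and cadmium and buffer them in the cell. In flies their genes are switched on by the metal-responsive factor *MTF-1*, and the midgut, above all its copper cell region, is a main site of their expression. Ferritin, a shell of heavy and light chains made in the secretory pathway of insect cells, stores iron. During metamorphosis the larval midgut is shed and histolysed, a transient pupal midgut epithelium forms around it, and precursor cells build the adult epithelium, all under pulses of the steroid hormone ecdysone.

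The pupal library held 3816 barcodes with 49734663 UMIs, and the median kept cell had 9343 UMIs from 1563 genes. The members were shallower than these, with 1006 UMIs in the lowest, 4480 in the median and 72211 in the highest member. Of the 254 members, 73 (28.7%) had fewer than 2000 UMIs and 120 (47.2%) had at least 5000. Chitinase-high cells had a median of 7935 UMIs, and the 1579 kept cells below the *MtnB* limit one of 10474. Mitochondrial transcripts took a median of 11.7% of the UMIs of a member, 8.92% of those of a chitinase-high cell and 6.52% of those of a cell below the limit. The part of depth and of mitochondrial content in the differences below was not tested, and the results with deep members alone are given beside them. No doublet caller was run, and 6 members lay above the 95th percentile of UMIs (45152) of the kept pupal cells. The pupal library shared 4 barcodes with the immature and 9 with the mature adult library, and 0 of these belonged to members.

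Neither limit fell in a gap of the data. The highest *MtnB* level below the limit was 499.6 per 10000 UMIs, the lowest at or above it 507.3, and the lowest of a member 528.5. Between 250 and 500 there were 56 kept cells and between 500 and 1000 there were 75, against 1372 cells under 50. The summed level of the 6 chitinase-group genes was 35.7 per 10000 in the lowest of the cells set apart and 35.5 in the highest member, and 36 of the 434 cells lay between 30 and 40. The members are therefore the lower range of a continuous score. They were not devoid of the group, nor poorer in it than most of the library. The sum had a median of 9.52 per 10000 in members and of 0 in cells below the *MtnB* limit. *Cht4* had a UMI in 122 of 254 members (48.0%) and in 18.0% of cells below the limit, and *CG9691* in 142 (55.9%) and in 15.3%. With each cell thinned at random to 1000 UMIs, *Cht4* had one in 28.0% (22.5–33.9) of members and 9.69% (8.27–11.3) of cells below the limit, and *CG9691* in 28.3% (22.9–34.3) and 10.0% (8.57–11.6). At that depth the shares of *CG32444*, *Sr-CI* and *Spn27A* differed by less than counting error, and *whe* was found less often in members, in 2.36% (0.872–5.07) against 6.40% (5.24–7.72).

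**Figure D1:**
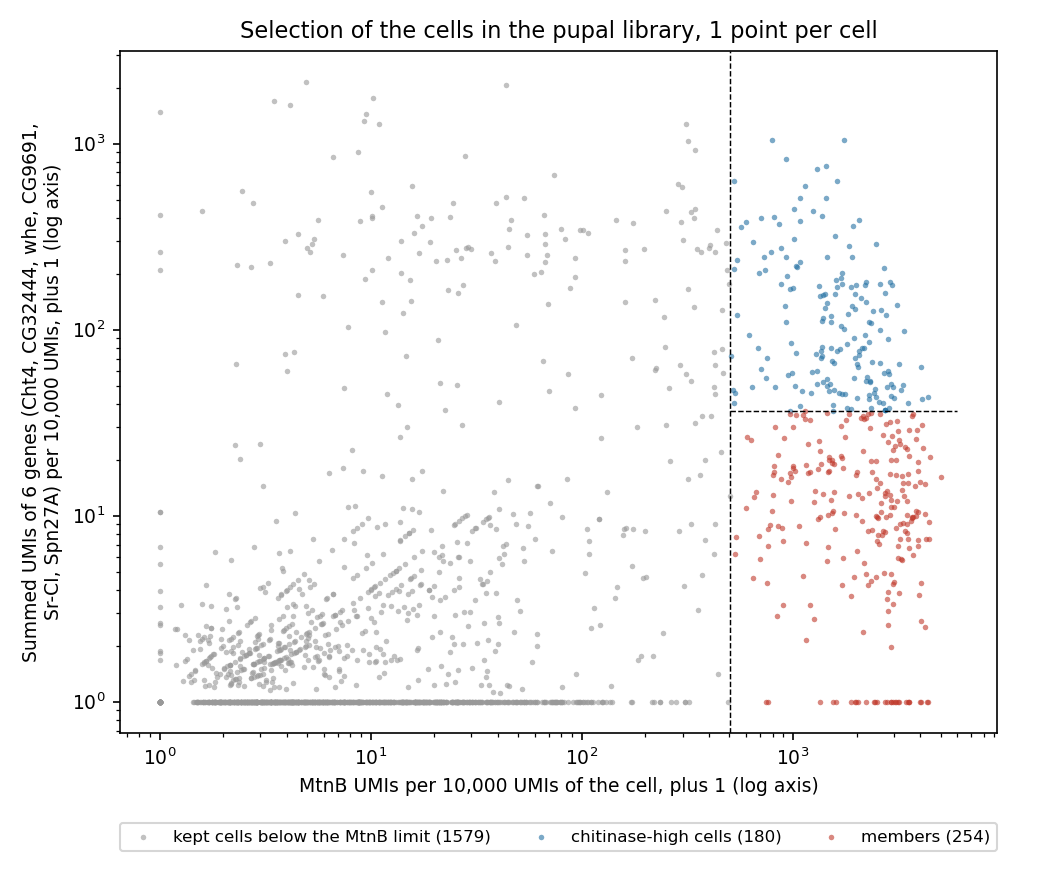
Each point is a kept cell of the pupal library, with *MtnB* per 10000 UMIs on the x axis and the summed level of the 6 chitinase-group genes on the y axis, both plus 1 and on log axes. The dashed lines are the limits of 500 for *MtnB* and of rank 180 for the sum, and the 254 members (red), 180 chitinase-high cells (blue) and 1579 cells below the *MtnB* limit (grey) meet at them without a gap.

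The class was given the markers *MtnB*, *Galt*, *slbo*, *bwa* and *CG2543*. *MtnB* is the gene of the rule, and the class was chosen with earlier results of these data known. Their presence in members is therefore a description and not a test of the class. A UMI of each of the 5 was present in 166 of 254 members (65.4%), and in 117 of the 120 members (97.5%) with at least 5000 UMIs. It was present in 143 of 180 chitinase-high cells (79.4%) and in 120 of the 1579 cells below the limit (7.60%). The 5 markers were thus shared with the chitinase-high cells, from which the rule separated the members by the sum of the 6 genes.

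The fly has a small family of metallothionein genes, and all 5 that the files list were higher in the members than in the other kept pupal cells. *MtnB* alone took 24.4% of all UMIs of the members, between 5.28% and 50.1% of those of a single cell with a median of 24.6%. It took 18.0% of the UMIs of the chitinase-high cells and 0.231% of those of the cells below the limit. *MtnA* to *MtnE* together took 32.9% of the members' UMIs, 29.5% of the chitinase-high cells' and 2.29% of those below the limit. In barcodes with at most 1000 UMIs the family took 10.5% of the UMIs. These may hold free RNA, broken cells or small cells, which was not tested, and 225 of the 718 (31.3%) passed the *MtnB* limit.

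Levels below are CPM, the summed UMIs of a gene over the cells scaled to 1000000 UMIs of the same cells, with the exact 95% Poisson interval in brackets, and a fold compares members with all 1759 other kept pupal cells, the chitinase-high cells included. Intervals of levels, shares and ratios cover counting error only, and cells of 1 library are not replicates. *MtnB* (chromosome arm 3R, 20503102 to 20503746, release 6 of the genome) stood at 244088 CPM (243472–244705) in members, against 19744 CPM (19689–19800) in the other cells, which is 12.4-fold. That contrast is the one the rule made. *MtnE* (3R, 20534021 to 20534704) stood at 3229 CPM (3158–3301) against 301 (294–308), 10.7-fold. *MtnD*, its neighbour (3R, 20534962 to 20535301), was 7.18-fold higher, at 9288 against 1293 CPM. The remaining members of the family differed less. *MtnC* (3R, 20360308 to 20360634) was 3.46-fold higher at 8765 CPM, and *MtnA* (3R, 9783407 to 9784370), a metallothionein known for its response to copper, 2.45-fold at 63270 CPM. *MtnA* was the exception beside the chitinase-high cells, where it was higher than in members, at 98337 CPM, a log2 ratio of members to chitinase-high cells of −0.64 (−0.65 to −0.63). *MtnE* was 2.04-fold higher in the members than in the chitinase-high cells, and *MtnD* was at like levels, 9288 and 9736 CPM. The proportions among the metallothionein transcripts thus differed between the MtnB-high classes.

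Both subunits of ferritin were high in the members as well, and also in the chitinase-high cells. Together they took 3.41% of the members' UMIs, 2.26% of the chitinase-high cells' and 0.297% of those below the limit. *Fer1HCH*, the heavy chain, was found in every member, at 6.14 per 10000 UMIs in the lowest, 121 in the median and 535 in the highest, against a median of 6.98 in cells below the limit. Its level was 19086 CPM (18914–19259) in members and 2756 CPM (2735–2776) in the other cells, 6.93-fold. *Fer2LCH*, the light chain, followed at 14967 and 2151 CPM, 6.96-fold. Against the chitinase-high cells the log2 ratios of the heavy and light chain were 0.57 and 0.62, within 2-fold. The genes of these chains lie head to head on 3R and overlap by 375 bases on opposite strands, and whether the counting used the strand is not given in the sources used here. Across the 120 members with at least 5000 UMIs their levels went together, with a Spearman rho of 0.95 over cells of 1 library. The haem oxygenase *Ho*, which frees iron from haem, was higher too, at a log2 ratio of 2.78. The rest of the list of iron handling genes did not share this. Of its 12 genes with at least 100 UMIs in both groups together, 4 were more than 2-fold higher and 6 more than 2-fold lower, and *Tsf1*, a transferrin of the haemolymph, stood at a log2 ratio of −3.46.

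These counts are to be read against all genes. Of the 7173 genes whose UMIs in both groups summed to 100 or more, 626 (8.73%) were more than 2-fold higher in members than in the other kept cells and 4581 (63.9%) more than 2-fold lower, with a median log2 ratio of −1.71. Being past 2-fold is a size and not a test, here and below. The median member had 793.5 detected genes. With each cell thinned to 1000 UMIs it had 315, against 339 in chitinase-high cells and 440 in cells below the limit. The rule chose cells with much *MtnB*, which leaves fewer of the 1000 UMIs for other genes. A lower count is thus partly built in, and thinning without *MtnB* was not run. A list near a median of −1.71 is no lower than genes at large. The chitin and peritrophic matrix list had 0 of its 16 counted genes higher and 11 lower, with a median of −2.55. It holds *Cht4* and *whe*, which the rule used, and without them 0 of 14 were higher and 10 lower at the same median.

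Copper and zinc handling genes went in both directions. *ATP7*, the copper-exporting ATPase, was 6.43-fold higher in members (269 against 41.8 CPM), and *Ccs*, the copper chaperone of superoxide dismutase, 4.83-fold (170 against 35.2 CPM). The copper importer *Ctr1B* was 3.63-fold higher, at 653 CPM (621–685), but was higher still in chitinase-high cells, at 949 CPM (910–988). The log2 ratio of *MTF-1*, the activator of the metallothioneins, was 1.15, and that of the zinc transporter *Zip99C* 1.73. Of 20 genes counted in this list, these 5 were more than 2-fold higher and 10 more than 2-fold lower, with a median of −0.95. With 8.73% of all genes higher, 63.9% lower and a median of −1.71, the list stood above genes at large. Among the lower ones were the zinc transporters *Catsup* (−3.18), *ZnT49B* (−3.12) and *ZnT86D* (−2.54).

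**Figure D2:**
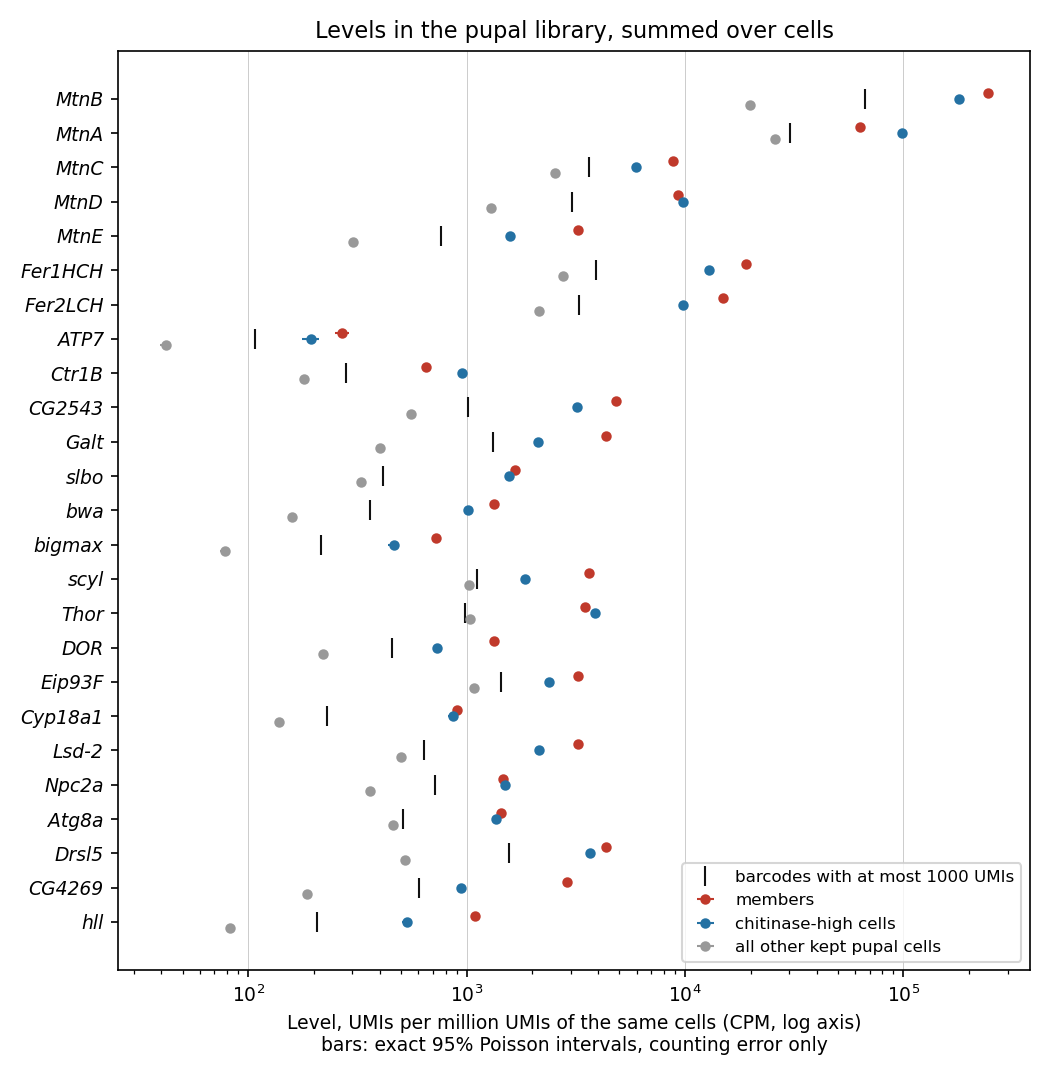
Points are levels in CPM (x axis, log scale) of named genes (y axis), summed over the members (red), the chitinase-high cells (blue) and all other kept pupal cells (grey, which include the blue ones), with exact 95% Poisson intervals, and black ticks give barcodes with at most 1000 UMIs. Every gene drawn was higher in members than in the other kept cells, and *MtnA*, *MtnD*, *Ctr1B*, *Thor* and *Npc2a* were at or below their level in chitinase-high cells.

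The genes that marked the class beside *MtnB* have unrelated roles. *Galt* (2L, 6666264 to 6668033), the uridylyltransferase of galactose breakdown, was at 0 UMIs in 1 member and found in the other 253, with a median of 35.0 and a highest value of 168 per 10000 UMIs. Its level was 4356 CPM (4274–4439) in members and 399 (391–407) in the other cells, 10.9-fold. *CG2543* (X, 12611867 to 12615530), named *Fpgs1*, for folylpolyglutamate synthase, in a newer annotation, was 8.62-fold higher, at 4810 against 558 CPM. *bwa* (2L, 20066391 to 20073719), an alkaline ceramidase of sphingolipid breakdown, was 8.40-fold higher, at 1334 against 159 CPM. *slbo*, the fly C/EBP transcription factor, which is known for the migration of the border cells of the ovary, was 5.06-fold higher, at 1664 against 329 CPM. Of the 7 genes counted in the list of galactose and UDP-sugar enzymes 2 were more than 2-fold higher and 3 lower. Without *Galt* itself and *CG32444*, a gene of the ranking, 5 genes were left, of which 1 was higher and 2 were lower.

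Because members were shallow, shares of cells were compared after thinning each cell at random to 1000 UMIs, which every kept cell could give. *Galt* then had a UMI in 94.1% (90.4–96.7) of members, 71.7% of chitinase-high cells and 12.9% of cells below the limit. *slbo* had one in 58.7%, 67.2% and 10.8%, in the same order. Free RNA was gauged in 196 cells with at least 50 UMIs per 10000 from enteroendocrine marker genes, where the share was 4.08% for *Galt* and 1.02% for *slbo*. For *CG2543* the shares were 81.5% of members and 3.06% of these cells, and for *bwa* 50.8% and 5.10%. For each of the 4 genes the share in members lay above that in the enteroendocrine-marker cells by more than the counting error. These 4 are markers given with the class, so this too is a description. Barcodes with at most 1000 UMIs had 1316 CPM of *Galt* and 413 CPM of *slbo*, under the members' levels but above those of the other kept cells.

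Of the genes detected in at least 25% of members, the 20 with the highest ratios held *MtnB*, *MtnE* and *Galt* and a set of genes from lipid, sugar and signalling biology. The non-coding RNA *CR44661* had the highest, at 295 CPM (274–317) against 12.6 (11.3–14.1), 23.4-fold. It lies inside *CR44662* on the opposite strand (X, 15079956 to 15080425), itself 12.6-fold higher, so reads of the pair may not be separable. *CG4269*, a gene without an assigned role here, was 15.4-fold higher at 2870 CPM, with a UMI in 78.0% of members and 13.9% of the other cells. Its log2 ratio of 3.94 was 1.98 with 360 cells set apart, and 2.37 below 10% mitochondrial UMIs, where 24 members were left. *hll*, an acyl-CoA synthetase of the bubblegum family, was 13.3-fold higher, at 1098 against 82.7 CPM. *bigmax*, the partner of the sugar-sensing factor *Mondo*, was 9.30-fold higher, at 725 against 77.9 CPM. *Pdh*, a retinol dehydrogenase known from pigment cells of the eye, was 9.39-fold higher at 269 CPM. *CG9186*, the lipid droplet protein *sturkopf*, was 9.34-fold higher at 141 CPM, and *GluRIIA*, a glutamate receptor subunit of the neuromuscular junction, 9.43-fold at 101 CPM. *CG15580*, *CG14990*, *CG13607*, *Root*, *CG30431*, *CG31446*, *CG13012*, *CG8112* and *MESK4* complete the 20, between 9.35-fold (*MESK4*) and 13.5-fold (*CG14990*) apart from *CG15580*, which stood at 53.5 against 3.83 CPM. These are genes whose products have no role stated here. *CG31446*, for example, was at 519 CPM (491–549) in members and 40.8 CPM (38.3–43.4) in the other cells. *CG13607* lies inside *Root* on the opposite strand (3R, 24114043 to 24116322), so reads of this pair may not be separable either.

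Genes of nutrient sensing and of the response to starvation, which act around the kinase TOR, stood above genes at large. Of 19 counted, 9 were more than 2-fold higher and 6 more than 2-fold lower, with a median of 0.68 against −1.71 over all genes. Beside *bigmax* these were led by *DOR* (6.05-fold, 1334 against 220 CPM), a nuclear receptor coactivator and autophagy factor. *scyl*, an inhibitor of TOR, was at 3614 CPM (3539–3689) in members and 1026 (1013–1038) in the other cells, 3.52-fold. *Thor*, the translation inhibitor 4E-BP, was at 3464 against 1035 CPM, 3.35-fold. The stress protein *Sesn* stood at a log2 ratio of 2.46 and the insulin receptor *InR* at 1.03. *Tor* itself (−2.07) and its inhibitor *Tsc1* (−3.56) were among the lower genes. Against chitinase-high cells 2 of 13 genes of the list were more than 2-fold higher and 0 lower, at a median of 0.58. Of all 2236 genes counted against those cells 9.12% were higher and 8.59% lower, at a median of 0.11.

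Lipid storage and transport showed the highest list median after the metallothioneins, at 0.99, with 7 of 16 genes higher and 3 lower. Against chitinase-high cells 2 of 11 were more than 2-fold higher and 1 lower, at a median of 0.45. Over all genes the shares were 9.12% and 8.59%, at a median of 0.11. The values that follow are again against all other kept cells. *Lsd-2*, a perilipin of the lipid droplet, was 6.41-fold higher at 3221 CPM (3150–3292) against 503 (494–511). *Lpin*, the phosphatidate phosphatase lipin, was 5.69-fold higher at 714 CPM, and *Npc2a*, a sterol-binding protein of the lysosome, 4.07-fold at 1468 CPM. The lipid regulator *SREBP* stood at a log2 ratio of 2.12, and the fatty acid transport protein *Fatp* at 2.28. *Lsd-1*, the other perilipin, was at −3.60. In energy and sugar metabolism, *Gk2*, a glycerol kinase, was 6.34-fold higher at 1115 CPM, *Oscillin*, a glucosamine-6-phosphate isomerase, 6.06-fold at 1666 CPM, and *SNF4Agamma*, the gamma subunit of AMP-activated kinase, 5.65-fold at 2094 CPM. In the same list, however, 15 of 26 genes were more than 2-fold lower and 7 higher, with a median of −1.76, and the glycolytic enzymes *Gapdh2* (−3.66) and *Eno* (−3.01) and the glycogen phosphorylase *GlyP* (−3.20) were among the lowest.

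Autophagy and lysosome genes were above the level of genes at large. In the autophagy list 9 of 21 genes were more than 2-fold higher and 3 more than 2-fold lower, with a median of 0.37. *Atg8a*, whose protein coats the growing autophagosome, was at 1442 CPM (1395–1490) in members and 461 (453–470) in the other cells, 3.13-fold. *Atg9*, a membrane protein of the same pathway, was 6.35-fold higher at 79.9 CPM, *Atg18a* 3.82-fold at 139 CPM, and the cargo receptor *ref(2)P* 2.35-fold at 333 CPM. Of 22 lysosome genes 8 were higher and 5 lower, with a median of 0.04. *Cp1*, a cathepsin L, was 3.07-fold higher at 1549 CPM, *CtsB1*, a cathepsin B, 2.05-fold at 1530 CPM, and *CREG* 4.16-fold at 396 CPM. The cell death list showed no such level, with 1 gene of 19 higher and 11 lower at a median of −1.59. Its higher gene was *Diap1*, an inhibitor of apoptosis, at 592 against 251 CPM. The effector caspase *Drice* stood at 25.9 against 14.7 CPM, below 2-fold. The levels of the autophagy and lysosome lists were shared with the chitinase-high cells. Against those, 0 of 12 autophagy and 0 of 14 lysosome genes were past 2-fold, at medians of 0.18 and 0.01. With 9.12% of all genes higher and 8.59% lower there, counts of 0 in lists this short are close to genes at large. Both medians lay near the 0.11 of all genes.

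Ecdysone response genes had a wide range of ratios. *Cyp18a1*, which inactivates ecdysteroids, was 6.51-fold higher, at 905 CPM (868–943) against 139 (134–144), with a UMI in 61.8% of members and 18.5% of the other cells. *Eip93F* (E93), a transcription factor of late metamorphosis, was 2.98-fold higher at 3235 CPM, and *ImpL2*, which binds insulin-like peptides, 4.70-fold at 354 CPM. The factors *Sox14* (2.17) and *Eip74EF* (1.47) were also above 1 on the log2 scale. In contrast the receptor gene *EcR* stood at −3.37, *Hr3* at −2.98 and *Hr4* at −3.18, and *ImpE1* had 0 UMIs in members against 30.4 CPM in the other cells. In total 7 of 28 genes were more than 2-fold higher and 14 more than 2-fold lower, with a median of −0.90. Of all genes 8.73% were higher and 63.9% lower, with a median of −1.71, so the list stood above genes at large. Of 7 juvenile hormone genes 2 were higher, *JhI-26* (4.85-fold) and the receptor *gce* (3.08-fold), and 3 lower.

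Single genes of other lists stood above the rest of their list. *Drsl5*, a drosomycin-like peptide, was at 4350 CPM (4268–4433) in members and 520 (511–529) in the other cells, 8.36-fold, and was the 1 gene higher of 12 in the list of antimicrobial peptides, lysozymes and recognition genes, with 9 lower. *Drsl2* of the same family was lower, at 468 against 2585 CPM. The polarity kinase *aPKC* was 6.46-fold higher at 1327 CPM, the 1 higher gene of 18 in its list. Among 23 midgut regional factors 1 was higher, *Hnf4* (3.85-fold at 270 CPM), a nuclear receptor of fat and sugar metabolism, and 21 were lower, with a median of −2.33. The sphingosine kinase *Sk1* was 5.56-fold higher, the glutathione transferase *GstT3* 5.66-fold at 1981 CPM, and the cytochrome P450 *Cyp6d5* 4.86-fold at 877 CPM. In the clock list *vri*, a repressor of *Clk*, was 3.51-fold higher at 183 CPM, and 3 of 9 genes were lower, among them *Pdp1* (−2.66) and *cwo* (−1.05).

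Ribosomal protein genes and nuclear genes of respiration lay at or below the level of genes at large. Cytoplasmic ribosomal protein genes took 8.63% of the members' UMIs and 28.3% of those of cells below the limit, and 79 of 83 were more than 2-fold lower at a median of −1.67, close to that of all genes. Nuclear genes of oxidative phosphorylation were lower than that, with 60 of 66 more than 2-fold lower, 1 higher and a median of −2.32. *ATPsynC* was at 285 against 2912 CPM and *ATPsyndelta* at 32.4 against 385 CPM. The mitochondrial genome went the other way, at 11.0% of the members' UMIs and 5.99% of those of cells below the limit. Of its 15 genes counted 2 were more than 2-fold higher, *mt:ATPase6* (2.86-fold) and *mt:CoIII* (2.30-fold). Past 2-fold downwards was 1, *mt:ND3* (−1.31), and the median was 0.43. In barcodes with at most 1000 UMIs mitochondrial genes took 28.0% of UMIs. Proton pump subunits had 0 genes of 20 higher and 7 lower, with a median of −0.19, above that of all genes. Heat shock genes were low, with 15 of 18 more than 2-fold lower and a median of −2.76, and *Hsp26* was at 266 against 2796 CPM. Their exception was *Hsc70-3*, the chaperone BiP of the endoplasmic reticulum, which was 2.21-fold higher at 899 CPM, a log2 ratio of 1.15. It came within 2-fold with each cell weighing the same (0.44), without cells above the 95th percentile of UMIs (0.93) and with 90 cells set apart (0.90).

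**Figure D3:**
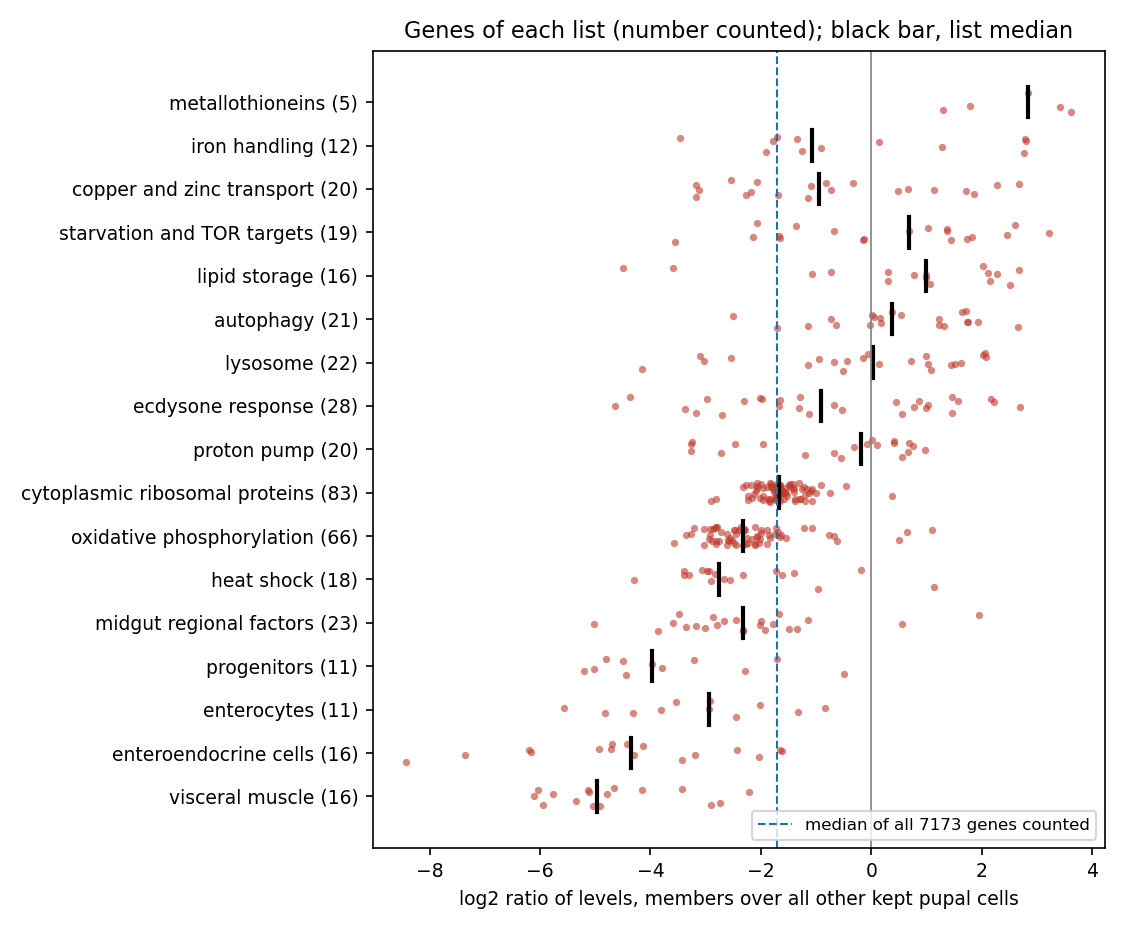
Each point is a gene with at least 100 UMIs in both groups together, placed on the x axis by the log2 ratio of its level in members over all other kept pupal cells, in lists of related genes (y axis, with the number of genes counted). Black bars are list medians and the dashed line is the median of all 7173 genes counted, −1.71, above which the metallothioneins (2.84), lipid storage (0.99) and starvation and TOR targets (0.68) stood, while visceral muscle (−4.97) and enteroendocrine markers (−4.36) stood below it.

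Markers of other cell types of the gut were low in the members. Of 11 progenitor markers 0 were more than 2-fold higher and 10 lower (median −3.97), and they took 0.0333% of the members' UMIs against 0.158% in cells below the limit. All 6 enteroblast markers, all 16 enteroendocrine markers and all 16 visceral muscle markers were more than 2-fold lower, with medians of −5.02, −4.36 and −4.97. Of 34 enterocyte markers 11 had enough UMIs to be counted, 10 of them lower and 0 higher, and 14 were at 0 UMIs in members. The whole list took 0.136% of UMIs in members, 0.0754% in chitinase-high cells and 4.19% in cells below the limit. Of 5 hemocyte genes counted 0 were higher and 2 lower (median −0.31), but 97 of the 100 UMIs of *Ppn* came from 1 member, and without that cell 4 were lower and the median was −1.72, close to that of all genes. *Sr-CI*, one of the 5, is also a gene of the ranking. The 4 germline markers were at 0 UMIs in members, while few genes of other tissues could be counted. Of 2 fat body, 5 Malpighian tubule, 7 trachea, 2 hindgut and proventriculus and 5 neuron and glia genes, 0 were higher and 2, 4, 6, 2 and 4 lower. With 8.73% of all genes higher, a count of 0 in lists this short is close to that of genes at large, and the Malpighian tubule median (−1.80) was near that of all genes. Some of the marker transcripts came from single cells. The enteroendocrine peptide gene *Tk* had 152 UMIs in members, of which 111 came from 1 cell, and the collagen gene *Col4a1* 153, of which 137 came from 1 cell.

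The genes furthest below the other cells, among those at 500 CPM or more there, came from the same cell types. *CG4115* had the lowest log2 ratio at −6.89. The muscle genes *Mp20* (−6.12), *up*, which encodes troponin T (−6.11), *Mlc2* (−5.94) and *Act57B* (−4.91) followed, none above 30.4 CPM in members. The serine protease *CG18179* was at 110 against 5190 CPM (−5.56), and the serine protease *CG18180* at 1106 CPM (1065–1149) against 31432 (31362–31502), 28.4-fold lower. *CG18180* was still found in 98.0% of members, with a median of 9.28 per 10000 UMIs against 7.71 in cells below the limit, so its 31432 CPM came from cells far above that median. At a depth of 1000 UMIs it had a UMI in 62.2% of members, 59.5% of cells below the limit and 39.8% of the enteroendocrine-marker cells, so its share in members was close to that in the cells at large. *whe* (−5.87), *Ag5r2* (−5.23) and *IA-2* (−4.93) complete the 10.

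A gene that takes 24.4% of the UMIs lowers the CPM of every other gene. With *MtnB* left out of all totals, each other log2 ratio was 0.37 higher, the median moved from −1.71 to −1.33, and 878 genes were more than 2-fold higher and 4090 lower. *Galt* then stood at 3.82, *slbo* at 2.72, *bwa* at 3.45, *CG2543* at 3.48 and *Fer1HCH* at 3.17. The lists kept their order around the median, with lipid storage at 1.37, starvation and TOR targets at 1.05, autophagy at 0.75, cytoplasmic ribosomal proteins at −1.30 and oxidative phosphorylation at −1.94. In the 120 members with at least 5000 UMIs, compared with the same other cells, the ratios were 3.62 for *MtnB*, 3.48 for *Galt*, 2.43 for *slbo*, 3.16 for *bwa* and 3.22 for *CG2543*, close to the 3.63, 3.45, 2.34, 3.07 and 3.11 over all members. Compared only with the 1579 cells below the *MtnB* limit, the ratios were larger, at 6.72 for *MtnB* and 4.36 for *Galt*. In the 100 members with less than 10% mitochondrial UMIs they were 3.93, 3.73, 2.57, 3.40 and 3.38.

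Chitinase-high cells passed the same *MtnB* limit, and a smaller share of genes separated them from the members. Of 2236 genes with at least 100 UMIs in both classes together, 204 (9.12%) were more than 2-fold higher in members and 192 (8.59%) more than 2-fold lower, with a median log2 ratio of 0.11. With *MtnB* left out of the totals the split was 285 higher and 165 lower at a median of 0.22. The 6 genes of the ranking were lower in members by construction, from −2.41 for *CG9691*, −2.62 for *Spn27A*, −3.42 for *Sr-CI* and −3.69 for *Cht4* to −4.73 for *CG32444* and −7.60 for *whe*. Genes the ranking did not use, but which vary with it, were low beside them. The chitinase *Cht8* stood at −4.28, the Bcl-2 family gene *Buffy* at −4.41, and *CR46195* at −6.69. *PIG-S*, *CG1143*, *sud1*, *CG3803* and *CG33493* were between −5.15 and −4.27. *sud1* lies inside *PIG-S* on the same strand (3R, 24915840 to 24917864), so reads of these genes may not be separable. The chitinase-high cells were not uniform. In the clustering given below, 39 of the 180 lay in a cluster with 126 cells below the *MtnB* limit and 0 members. *whe* had a UMI in 41.1% of the 180, with a median of 0 and a highest level of 964 per 10000 UMIs. How far few chitinase-high cells gave the lower ratios was not measured.

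As lists, sugar metabolism and the proton pump were lower in members, in levels summed over all cells of each class. Of 20 glycolysis and glycogen genes 10 were more than 2-fold lower in members and 0 higher, with a median of −1.01, and *Pgi* stood at −4.09, *Gapdh1* at −2.65, *Tpi* at −2.57 and *Eno* at −2.51. *Pgm*, which interconverts glucose phosphates, was at 25.9 CPM in members and 207 CPM in chitinase-high cells. Of 14 proton pump subunits 4 were more than 2-fold lower and 0 higher, with a median of −0.88, and *Vha13* was at 1088 against 2158 CPM. Ribosomal protein genes were at a median of −0.55, with 0 of 81 past 2-fold in either direction. *Drsl2*, of the drosomycin-like family, was at 468 CPM in members against 4765 in chitinase-high cells, a ratio of −3.35, while *Drsl5* was within 2-fold (0.24). The dosage compensation helicase *mle* was at 8.92 CPM in members, 112 CPM in chitinase-high cells and 49.1 CPM in all other kept cells.

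Among the genes higher in members than in chitinase-high cells were chaperones. Of 11 heat shock genes 7 were more than 2-fold higher and 0 lower, with a median of 1.20, although 15 of the list were lower than in the other kept cells. *Calr*, the calcium-binding chaperone calreticulin of the endoplasmic reticulum, had the highest ratio of all the genes detected in at least 25% of members, at 305 CPM (284–328) against 46.8 (38.6–56.3), a log2 ratio of 2.71 (2.42 to 3.00), and was at 506 CPM in the other kept cells. *Hsc70-3* was at 899 against 244 CPM. Few cells gave much of these levels. The 5 highest members held 60.7% of the *Calr* UMIs and 42.6% of the *Hsc70-3* UMIs, and 1 member held 366 of the 519 UMIs (70.5%) of *CG11912*, which had the next highest ratio (2.51, and −1.77 with 360 cells set apart). In *GstD1* (1.85), a glutathione transferase of the oxidative stress response, the 5 highest members held 60.1%. The other genes of the 10 were *CG15784* (2.36), *CG11407* (2.19), an acyl-CoA synthetase named *Acsx3* in a newer annotation, *spheroide* (1.90), *CG31446* (1.88), *CG32850* (1.85), the ubiquitin ligase *Rnf11*, and *CR44661* (1.83). *CG32850* was at 607 CPM in members but at 1006 CPM in barcodes with at most 1000 UMIs.

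Several of the genes with the highest ratios over the whole library were also higher in members than in chitinase-high cells. *CG4269* stood at 2870 against 942 CPM (3.05-fold), *Galt* at 4356 against 2120 CPM (2.05-fold), *hll* at 1098 against 532 CPM (2.06-fold) and *scyl* at 3614 against 1840 CPM (1.96-fold). Thinned to 1000 UMIs, *CG4269* had a UMI in 57.9% (51.5–64.0) of members and 32.2% (25.5–39.6) of chitinase-high cells, and *hll* in 48.0% and 29.4%. The direction of *CG4269* depended on the rank limit, since with 360 cells set apart and 74 members left its log2 ratio was −0.34 in place of 1.61. *slbo* (1.07-fold), *Cyp18a1* (1.05-fold), *Gk2* (1.01-fold) and *Npc2a* (a log2 ratio of −0.03) were at like levels in both. Within the ecdysone list 4 of 17 genes were higher and 0 lower, with a median of 0.60, *ImpL2* among them at 354 against 162 CPM (2.18-fold).

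The members were not uniform, and several of their differences went with depth. In 4 bins of equal size by total UMIs, with median UMIs of 1249, 2729, 7704 and 23300, *MtnB* stood at 260109, 245183, 189394 and 258861 CPM and showed no trend. *slbo* stood at 600, 891, 1940 and 1719 CPM. *CG2543* stood at 1532, 2081, 5986 and 4923 CPM, and *bwa* at 515, 701, 1784 and 1312 CPM. These 3 markers were thus higher in both deeper bins than in both shallower ones, and *Galt* was too, though by less, at 3627, 3624, 4549 and 4414 CPM. *Fer1HCH* was at 8418 CPM in the shallowest and 20549 CPM in the deepest bin, *Thor* at 1360 and 3508 CPM, and *Cyp18a1* at 270 and 1011 CPM. *CG18180*, a protease transcript found in nearly every kept cell, went the other way, from 4227 and 3847 to 1793 and 466 CPM. The part of free RNA in the shallow members was not tested.

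Clustering of all kept pupal cells on 2000 variable genes, without *MtnB* and the 6 ranking genes, split most of the members in the same manner. They lay in 6 of 13 clusters, and 2 of these held 233 of the 254 (91.7%). The 120 members of the first had a median of 1737.5 UMIs and of 2919 *MtnB* per 10000, and the 113 of the second 13789 UMIs and 1998 *MtnB* per 10000. Another cluster held 16 members, with a median of 3514.5 UMIs, beside 15 chitinase-high cells and 0 cells below the limit. Over these 16, *CG18180* stood at 10934 CPM, against 1985 in the first and 570 in the second cluster. *Galt* stood at 1514 CPM, against 3027 and 4760, and *MtnB* at 122488 CPM. These levels lay outside those of both larger clusters, while the depth lay between theirs. At a coarser resolution (0.3) 233 members fell in 1 of 9 clusters, together with 126 chitinase-high cells and 73 cells below the *MtnB* limit. Summed over the shallow cluster, *CG2543* stood at 2331 CPM and *Fer1HCH* at 10043, and over the deep one at 5495 and 21569 CPM. *MtnB* was at 288813 CPM in the first and 240339 CPM in the second.

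Binned by *MtnB* level instead, with medians of 965, 1959, 2871 and 3676 per 10000, the other metallothioneins were higher in the highest bin than in the lowest. *MtnC* stood at 3969, 7811, 11383 and 11147 CPM, and *MtnD* at 3735, 6713, 11677 and 14028 CPM. *MtnA* stood at 43177, 52967, 87565 and 68576 CPM. *MtnE* stood at 2531, 2031, 3722 and 4532 CPM, so its second bin was below the first, and *MtnA* had its highest level in the third. The ferritin chain *Fer1HCH* was at 17897 CPM in the lowest and 18009 in the highest bin, but at 19748 and 28611 CPM with *MtnB* out of the totals, and *Fer2LCH* then at 14619 and 23517 CPM. The markers were lower where *MtnB* was higher, *slbo* from 2282 to 1295 CPM and *CG2543* from 6285 to 3397 CPM, but with *MtnB* out of the totals *slbo* stood at 2518 and 2057 CPM, *CG2543* at 6936 and 5397 CPM and *Galt* at 6124 and 5763 CPM. The difference of these markers between the bins was thus smaller once *MtnB* was out of the total. Over the 120 deep members, with *MtnB* out of the denominator of the other gene, the Spearman rho of *MtnB* was 0.63 with *MtnC*, 0.53 with *MtnD*, 0.50 with *MtnA* and 0.34 with *MtnE*, against −0.07 with *Galt*, −0.03 with *slbo* and 0.16 with *Fer1HCH*. These points share a library and differ in depth, and the values are a description.

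**Figure D4:**
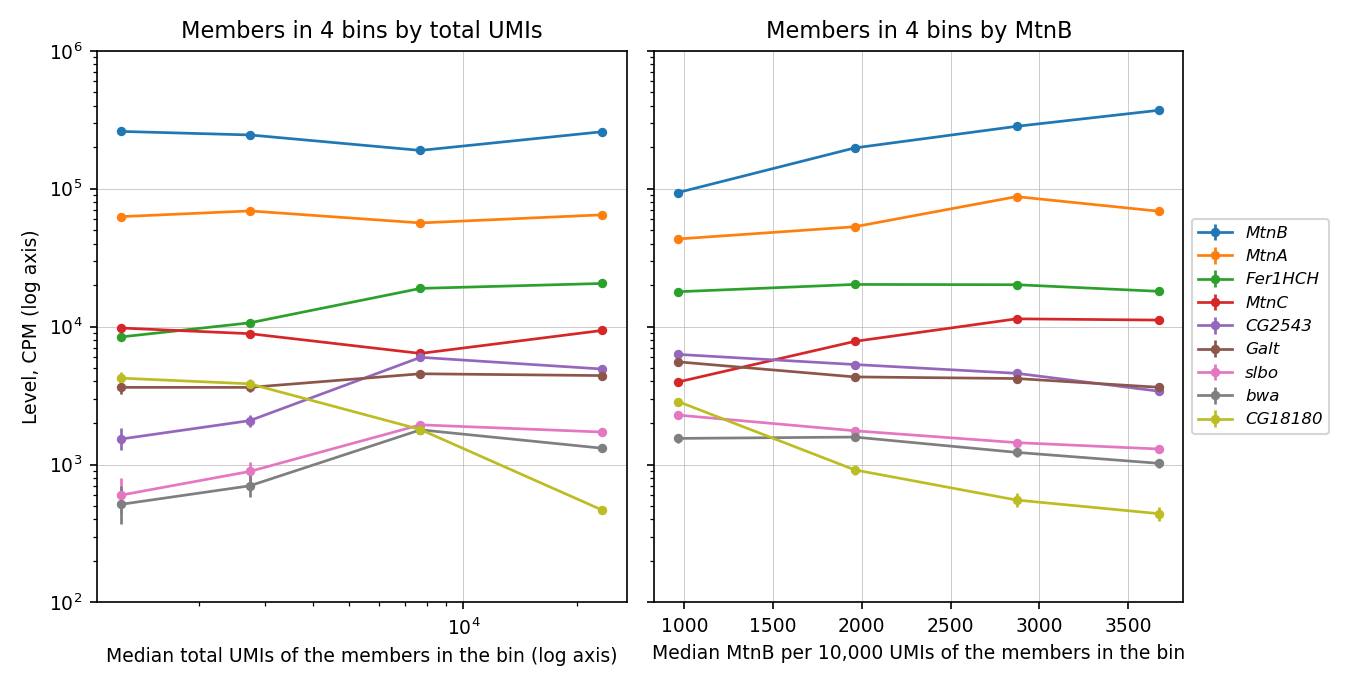
The y axes give the level in CPM (log scale, bars are exact 95% Poisson intervals) of named genes in the 254 members, split into 4 bins of equal size by total UMIs (left, x axis on a log scale) or by *MtnB* per 10000 UMIs (right), each bin placed at its median. On the left *slbo*, *bwa*, *CG2543* and *Fer1HCH* lie higher in the deeper bins and *CG18180* lower, and on the right *MtnC* and *MtnA* lie higher in the bins with more *MtnB*.

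The roX RNAs, which males make for dosage compensation, bear on the label female. *roX1* was found in 13 of 254 members (5.12%, 2.75–8.59), 15 of 180 chitinase-high cells (8.33%) and 244 of 1579 cells below the limit (15.5%). Its level was 22.7 CPM in members, 58.8 CPM in chitinase-high cells, 146 CPM in cells below the limit and 98.2 CPM in barcodes with at most 1000 UMIs. *roX2* was at 14.6, 10.4, 63.2 and 24.5 CPM, in the same order. RNA that males make was thus present in the library labelled female. The study's methods name both sexes for its developmental work, with females analysed unless stated, and do not settle which held for this library. The level of *roX1* in members was below that in the shallow barcodes.

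In the adult libraries the same limits picked out few cells. In the immature adult 16 of 1197 kept cells (1.34%, 0.766–2.16) reached 500 *MtnB* per 10000 UMIs, and 13 of them (1.09% of kept cells) were under the chitinase limit of the pupa. In the mature adult 0 of 1980 did, which allows a share of up to 0.152% (3 cells of 1980) or, as an exact interval, 0.186%, and the highest *MtnB* level of any kept cell was 126.4 per 10000. In the pupa members made up 12.6% (11.2–14.1) of kept cells. The 13 immature adult cells held 42570 UMIs in all, with a median of 1463, and their levels rest on small counts. The deepest cell gave 13990 (32.9%) of these UMIs.

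Summed over these 13 cells, *MtnB* stood at 204158 CPM (199888–208496), *MtnA* at 53347 and *Fer1HCH* at 10759 CPM. The markers were present too, with *Galt* at 3312 CPM (2788–3906), *CG2543* at 4299 (3699–4969) and *bwa* at 705 (475–1006). *slbo* stood at 3993 CPM (3416–4641) against 1664 in the pupal members, *Cyp18a1* at 2490 (2039–3012) against 905, and *Thor* at 5708 (5013–6473) against 3464, all higher than in the pupa beyond counting error. Without the deepest cell *slbo* stood at 4269 (3545–5097) and *Cyp18a1* at 1610 CPM (1178–2147), still higher, and *Thor* at 3849 (3163–4639), no longer so. *Drsl5* was lower, at 117 CPM (38.1–274) against 4350, as was *CG4269* at 987 CPM (711–1334) against 2870. *Galt* (4356 CPM in the pupal members), *bwa* (1334), *hll* (540 against 1098) and *Fer1HCH* (10759 against 19086) were lower than in the pupa as well. Against all members these differences held without the deepest cell for *Galt*, *bwa*, *Fer1HCH*, *Drsl5* and *CG4269*. *hll*, at 805 CPM (510–1208), was within counting error. Beside the 64 shallowest members (median 1249 UMIs) most of these lower levels were not seen. There *bwa* stood at 515 CPM (371–696), *Fer1HCH* at 8418 (7800–9072) and *CG4269* at 1397 (1152–1678). The 12 cells without the deepest had 525 (294–866), 8852 (7795–10013) and 1295 CPM (912–1784), and the intervals of *Galt* overlapped. *Drsl5* was still lower, at 175 against 5293 CPM. The genes higher in the 12 cells stood further above these shallow members than above all members. *slbo* was at 600 CPM (444–794) in the shallow members, *Cyp18a1* at 270 (169–408) and *Thor* at 1360 (1119–1638). *Thor* was thus higher in the 12 cells beyond counting error here. *CG2543* stood at 1532 CPM (1275–1825) in the shallow members and at 4129 (3417–4944) in the 12 cells. *CG18180* had 0 UMIs in the 13 cells. Over all kept cells of the mature adult, *slbo* was at 0.147 CPM, *CG2543* at 1.81 CPM and *Galt* at 14.7 CPM. *MtnE* was higher there, at 1343 CPM, than in the 1759 other pupal cells, at 301 CPM, and *Fer1HCH* was at 1952 CPM, so metallothionein and ferritin transcripts were also found in the mature adult.

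**Figure D5:**
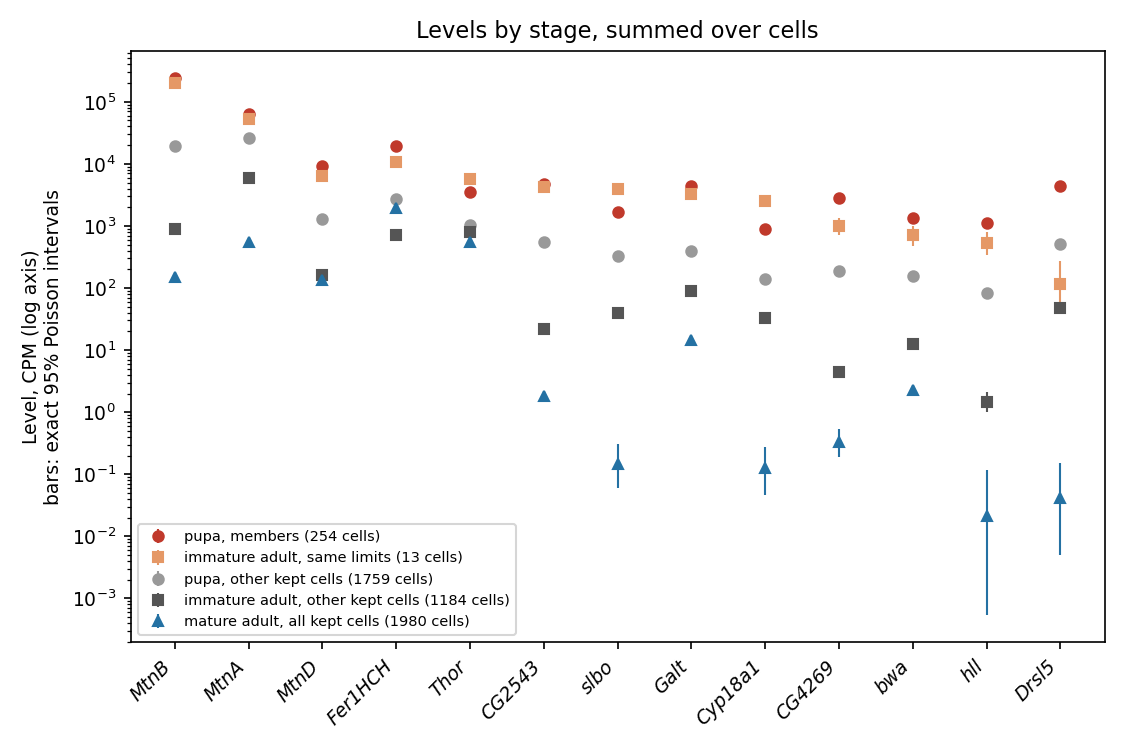
The y axis gives levels in CPM (log scale, bars are exact 95% Poisson intervals, genes with 0 UMIs not drawn) of the genes on the x axis in the members and the other kept cells of the pupa (circles), in the 13 cells of the immature adult under the same limits and its other kept cells (squares), and in all kept cells of the mature adult (triangles). The 13 immature adult cells lie near the members for *MtnB*, *MtnA*, *CG2543* and *Galt*, above them for *slbo* and *Cyp18a1*, and below them for *Drsl5*, and *slbo*, *Cyp18a1*, *hll* and *Drsl5* were below 1 CPM in the mature adult.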

How the data were processed

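The authors sequenced 1 library of intestinal cells per stage with the 10x Genomics 3′ kit (v3.1), and the submitters' processing notes name Cell Ranger 3.0.2. The authors deposited whole UMI counts per gene and barcode for 17738 genes, without normalization and before the study's filter on cells, and whether intronic reads or the strand were used in counting is not given in the sources used here. Total counts per library were 49734663 (pupa), 51465612 (immature adult) and 77966155 UMIs (mature adult). No column was left unmapped. Positions come from a BDGP6 annotation, in which 17599 of the 17738 gene IDs were found.

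Kept cells, the *MtnB* limit and the rank limit are given with the results. Mitochondrial genes were the 38 whose symbol marks them so. UMIs were summed over cells and scaled to CPM, with exact 95% Poisson intervals, Clopper-Pearson intervals for shares and intervals conditional on the total for ratios. With 1 library per stage no test was run. Genes were counted with at least 100 UMIs in both groups together and called past 2-fold, and against 0 UMIs the ratio was computed against 3 UMIs over the group. Named are the 5 markers and the 6 ranking genes, the 20 highest (a UMI in at least 25% of members) and 10 lowest (at least 500 CPM in the other cells) against the other kept cells, the 10 highest and 10 lowest against chitinase-high cells, and up to 6 genes for each of 38 lists, with the most UMIs, the highest and the lowest ratios. In addition, list genes whose log2 ratio alone is given were picked after their values were seen. The members and the lists were chosen with earlier results of these data known. Pupal cells were clustered with scanpy 1.11.5 (2000 variable genes, 14 components, 20 neighbours, Leiden resolution 0.5). The rest was done in Python 3.11.15 (scipy 1.17.1, numpy 2.4.6, matplotlib 3.10.9, pandas 2.3.3), and the computation was checked on simulated counts.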

Additional observations from a re-analysis of the deposited data

Results flagged for a closer look

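*MtnB* was also abundant in pupal barcodes that the filter on cells left out. Those with at most 1000 UMIs were set beside the members above, and those with at least 25% mitochondrial UMIs were not. Of 718 barcodes with at most 1000 UMIs, 225 (31.3%, exact interval 28.0–34.9) had *MtnB* at 500 or more per 10000 UMIs, and its summed level was 67001 CPM. Of 922 barcodes with more than 1000 UMIs and at least 25% mitochondrial UMIs, 181 (19.6%, 17.1–22.3) did, at 21203 CPM. Among kept cells the share was 21.6% (434 of 2013), and the median barcode had 85.0 *MtnB* per 10000 UMIs in the first set, 21.4 in the second and 12.7 among kept cells. A limit at 1000 UMIs thus left out barcodes with as much *MtnB* as many members.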

How the results depend on the processing

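Counting error is the only error covered, since 1 library stood for each stage, and the shallow depth of many members limits genes of low level. No paired analysis was possible because each stage had 1 library and no test was run. Alternatives changed the denominator, the weight of cells, the filters, the limits, the compared cells, the thinning and the resolution, and those with members of at least 5000 UMIs, members in 2 clusters, a 10% mitochondrial limit with the chitinase limit kept, lists without genes of the ranking or 1 member, and the immature adult cells without the deepest were added after seeing the data. Against the other kept cells, 183 of 216 named genes were past 2-fold, and of 3089 alternative values 2 changed sign, *Ncc69* (1.70 with mitochondrial UMIs below 10%) and *tsh* (0.10 with each cell weighing the same), while 81 values of 33 genes came within 2-fold. Against chitinase-high cells, 43 of 135 were past 2-fold, and of 1737 values 10 changed sign and 41 values of 15 genes came within 2-fold. The 10 were *CG4269* (−0.22 with mitochondrial UMIs below 10%, −0.34 with 360 set apart), *CG11912* (−1.60 and −1.77), *Col4a1* (−3.84 and −2.72, −0.62 with an *MtnB* limit of 1000, and −0.47 for members in 2 clusters), *Ppn* (−1.36 with the limit of 1000) and *roX1* (0.065 with 90 set apart). Below 10% mitochondrial UMIs 24 members were left, since 180 were still set apart (100 with the chitinase limit kept), and 2536 genes were lower than in the other cells in place of 4581. Without a filter on low counts 4353 genes were called higher than in the other cells, 1577 higher and 1639 lower than in chitinase-high cells. Many of these are bounds against 0 UMIs. The 3 UMIs put in for 0 stand for 1.22 CPM in members but 0.122 CPM in the other cells. A gene with 0 UMIs in members and few in the other cells was thus called higher by this floor alone. The 4353 are therefore no count of genes higher in members. With *MtnA* to *MtnE* out of the totals 962 were higher than in the other cells. Genes higher than in chitinase-high cells numbered 333 with an *MtnB* limit of 250, 506 with 90 and 130 with 360 cells set apart, in place of 204. The immature adult had 28 MtnB-high cells at a limit of 250 and 10 at 1000, and the mature adult 0 at both. The causes of these shifts were not tested beyond the changed numbers of genes and cells. Where a group had 0 UMIs under an alternative no value was computed.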

Other observations

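Further groups of genes were measured in the members without entering a comparison above. Among 16 factors of the bZIP class, to which *slbo* belongs, 4 were more than 2-fold higher than in the other kept cells and 7 more than 2-fold lower, with a median log2 ratio of −0.83. Beside *slbo* (2.34) and *vri* (1.81) the higher ones were *maf-S* (1.76), the small Maf partner of the oxidative stress factor encoded by *cnc*, and *Irbp18* (1.19), a C/EBP-related partner of *Xrp1*. *Xbp1*, a factor of the unfolded protein response, stood at 0.95. The list of glutathione and redox genes had 7 of 48 higher and 25 lower, with a median of −1.47, and among the higher ones both subunits of the enzyme that makes the glutathione precursor, *Gclc* (2.18) and *Gclm* (2.16), stood beside *GstT3* (2.50), *Cyp6d5* (2.28) and *Keap1* (1.74). *Sod1* (−1.86) and *Sod2* (−3.84), the superoxide dismutases of cytosol and mitochondria, were among the lower ones.

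In sphingolipid metabolism 4 of 12 genes were more than 2-fold higher and 6 more than 2-fold lower, with a median of −1.01. The higher ones were *bwa* (3.07), *Sk1* (2.48), the saposin precursor *Sap-r* (1.53) and the ceramide kinase *Cerk* (1.27). Of the genes of ceramide synthesis, *lace* was at −2.68 and *schlank* at −3.13, but *Spt-I*, which encodes the partner subunit of the *lace* product, at −0.30, and *ifc* at −1.72, the level of genes at large. The other ceramidase *CDase* (−2.43) and the other sphingosine kinase *Sk2* (−2.52) were lower. In the junction and polarity list 10 of 18 genes were lower, at a median of −1.55, but the smooth septate junction genes of the midgut, *mesh* (−0.11), *Ssk* (0.16) and *Tsp2A* (0.57), were at levels like those of the other cells. Of 7 dosage compensation genes 0 were higher and 6 lower, with a median of −1.99.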
